A study of Mus musculus with 30 samples.

Results

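Immediate early and Id genes were followed in kidneys of C57BL/6 mice, a common inbred strain, from which total RNA was put on 1-colour short-oligonucleotide arrays. The 10 genes were Fos, Jun, Junb, Egr1, Ier2, Ier3, Btg2, Id1, Id2 and Id3, of 6136 genes that the array annotation names on either of 2 array types. Every probe set that the annotation gives to 1 of these genes alone was taken, which made 13 probe sets, 7 on the first array type and 6 on the second. There were 3 groups of 5 animals: young controls, fed the control diet and 5 months old, old controls, fed the control diet and 30 months old, and calorie-restricted animals, fed the restricted diet and 30 months old. Calorie restriction is a lowered food intake; the sources used here do not give its degree, its start or the sex of the animals. Each animal was measured on both array types, which gave 30 samples. Numbers 1 to 5 of each group are treated as separate animals, which the labels do not state, so p-values measure only the spread between these samples, which may be technical.

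Immediate early genes are switched on within minutes of a stimulus, before any new protein is made, through serum response factor, CREB and other factors already present in the cell. Fos, Jun and Junb encode subunits of the AP-1 transcription factor, Egr1 a zinc finger transcription factor, and Ier2, Ier3 and Btg2 regulators of growth, survival and proliferation. Id proteins are helix-loop-helix proteins without a DNA-binding region. They bind E proteins and keep them from E-box sequences, and their genes are well-known targets of bone morphogenetic proteins acting through Smad factors.

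Promoter sequence is shown for Ier3, Id2 and Id3, the genes with RefSeq promoter entries whose levels in calorie-restricted kidneys are described in most detail below. The RefSeq promoter table (GRCm38.p6) matched 7 of the 10 genes; Id1, Egr1 and Ier2 had no entry. Each run below covers the 250 bases before the annotated start, 5′ to 3′ on the strand of the gene, with E-box (CANNTG) and Smad palindrome (GGCGCC) letters in capitals. Ier3 lies at chr17:35821463-35821712 on the plus strand, Id2 at chr12:25096093-25096342 on the minus strand, and Id3 at chr4:136143572-136143821 on the plus strand.
Ier3: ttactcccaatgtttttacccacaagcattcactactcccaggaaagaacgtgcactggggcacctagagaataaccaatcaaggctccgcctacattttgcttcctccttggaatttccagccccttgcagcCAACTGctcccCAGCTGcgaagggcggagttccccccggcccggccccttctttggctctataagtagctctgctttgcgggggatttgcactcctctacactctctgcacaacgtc
Id2: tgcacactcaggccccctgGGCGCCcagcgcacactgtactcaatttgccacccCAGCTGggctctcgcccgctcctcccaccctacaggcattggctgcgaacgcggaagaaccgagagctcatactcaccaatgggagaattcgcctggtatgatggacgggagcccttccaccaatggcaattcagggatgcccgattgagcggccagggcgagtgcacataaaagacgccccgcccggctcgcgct
Id3: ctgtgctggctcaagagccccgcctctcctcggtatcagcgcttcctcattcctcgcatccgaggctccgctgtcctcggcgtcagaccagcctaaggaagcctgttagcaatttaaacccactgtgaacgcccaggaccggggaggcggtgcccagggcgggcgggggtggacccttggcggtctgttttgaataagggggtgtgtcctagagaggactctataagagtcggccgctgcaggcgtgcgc
Ier3 had 2 E-box matches, 117 and 106 bases before the start, and Id2 had a GGCGCC match at 231 and an E-box match at 196 bases before it. Id3 had neither in this window. Both strands were searched, and matches of different motifs were counted separately where they overlapped. Among the 7 genes, 5 held an E-box, 3 the letters GGCGCC, 1 (Btg2) the cyclic AMP response element TGACGTCA, and 0 the AP-1 element TGANTCA or a CArG box, the sequence that serum response factor binds. Over 32851 promoters of the same length the shares were 66.2% for the E-box, 9.59% for GGCGCC, 1.55% for TGACGTCA, 6.75% for TGANTCA and 1.47% for the CArG box. A match describes letters and not a bound site, and a count of 0 covers only these 250 bases. Sequence farther from the start was not searched, nor were the promoters of Id1, Egr1 and Ier2.

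On an array of the first type 33.5% to 37.5% of probe sets lay above the background floor, and 23.9% to 27.7% on the second. The floor, taken from the size of the negative values (their root mean square), was 1103 on the first and 1815 on the second array type, and the number of arrays limits the precision. Of the kidney markers that the arrays name, 4 of 4 proximal tubule genes and 6 of 6 from later nephron segments were above background on enough arrays to test. In calorie-restricted animals 4 and 5 the Gapdh 3′ to 5′ signal ratio, a sign of RNA quality, was between 1.40 and 2.05 on the first array type and between 1.44 and 1.97 on the second. It was 0.935 to 1.13 and 0.934 to 1.37 in the other animals with a value. The ratio of 1.37 was that of young control 5, and young controls 4 and 5 had no value on the first array type. The actin ratio was 1.66 to 1.86 against 1.08 to 1.39 on the first array type. On the second it was 1.78 in both calorie-restricted animals against 0.919 to 1.88, so it did not set them apart there. Young control 5 had the ratio of 1.88. Results that rest on calorie-restricted animals 4 and 5 are given with and without them. On the first array type 36.1% to 37.5% of probe sets lay above the floor on arrays numbered 1 to 3, against 33.5% to 35.2% on those numbered 4 and 5. The sets stood apart so in each group, for a reason the labels do not give. On the second array type they overlapped in young and in old controls. Changes within each number set are printed beside results where they passed, turned sign or moved by over 1.5 times. On the second array type, young values of targets with several probe sets of the suffixes i, f, s or r lie in exchanged rows, and no member is such a target. For 957 other probe sets with the suffix s, young and old means correlated with r = 0.957 across probe sets, against -0.20 for the 85 exchanged ones.

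Only 6 of the 10 genes had a signal above background that could be tested. Id1 and Id2, each by its probe set of the second array type, and Id3 (M60523_s_at) lay above the floor on all 15 arrays. Ier3 (X67644_s_at) and Btg2 (M64292_s_at) did so on 13, the Id2 probe set of the first array type (M69293_rc_at) on 10, and Egr1 (m22326-2_s_at) on 7. A probe set was tested if it was above the floor on at least 5 of 15 arrays, which 7 of the 13 met.

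The other 6 probe sets were above the floor on no array. They were both probe sets of Fos, those of Jun, Junb and Ier2, and the Id1 probe set of the first array type, so Fos, Jun and Junb were not above background in any kidney. Scaled intensities ran from -279 to 439 for Fos K02785_at, from -1900 to -220 for Fos v00727_s_at, from 275 to 1003 for Jun x12761_s_at, from -497 to 546 for Junb u20735_s_at, and from 215 to 759 for Ier2 m59821_s_at. Id1 m31885_rc_at read -848 to 701 while the other Id1 probe set was above the floor everywhere, so the Id1 values below rest on 1 probe set. Values under the floor have no order, and no comparison is made among them.

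**Figure D1:**
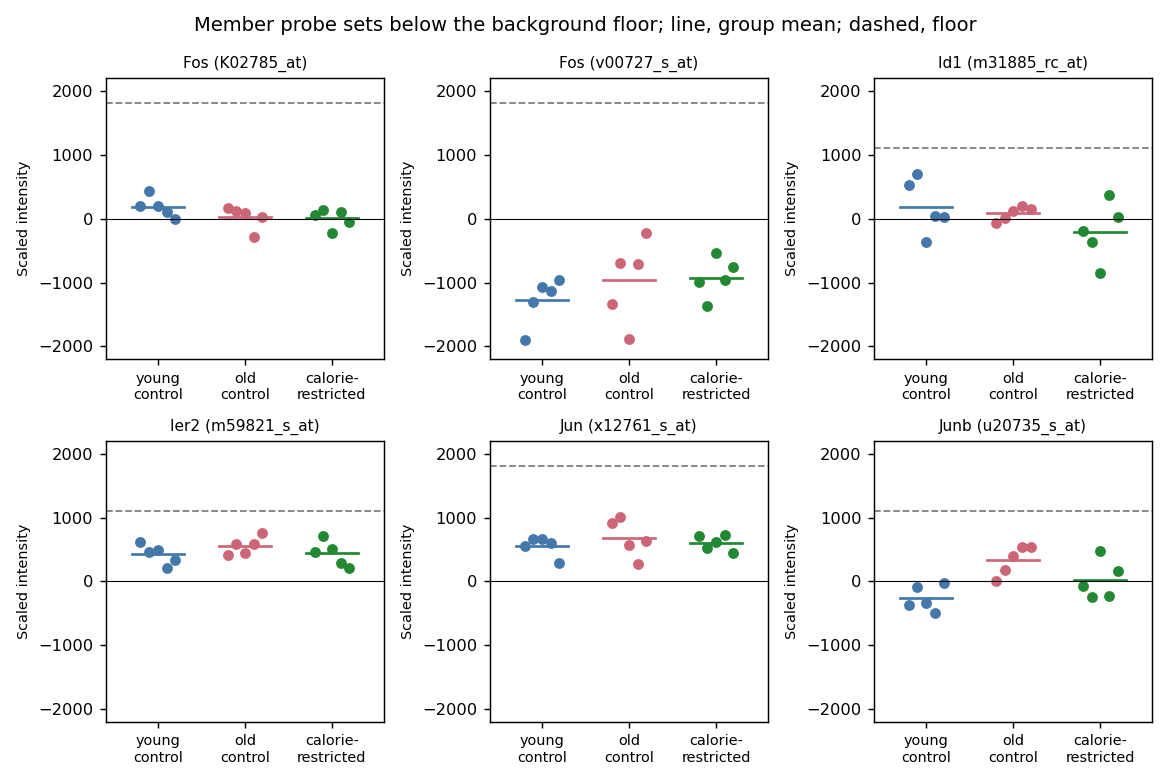
Scaled intensity (linear axis) of the 6 member probe sets under the floor, by group, with 1 point per animal in the order of its number, a line at the group mean and a dashed line at the floor of the array type. All 15 points of each panel lie below the dashed line, at 1103 or 1815.

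Id1 was higher in calorie-restricted kidneys than in old controls, 2.18-fold, and it was the only member that passed the threshold in this comparison. Its scaled intensities were 5436, 5355, 6942, 8076 and 7131 in young controls, numbers 1 to 5. They were 5164, 2091, 4099, 6483 and 5825 in old controls, and 10142, 10803, 6102, 10700 and 11590 in calorie-restricted animals. Calorie-restricted animals 1, 2, 4 and 5 stood above all 10 controls, whereas animal 3 stood within both control groups, and old control 2 was the lowest of all. The group means were 6588 ± 1170.5 (SD, n = 5), 4732 ± 1719 and 9868 ± 2167.

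The log2 change of Id1 with the diet was 1.13 ± 0.27 (SE; 95% interval 0.56 to 1.69; limma adjusted p = 0.0331). Of the 4518 probe sets tested, 0.907% passed in the higher direction in this comparison, and 1 of 7 member probe sets did. Against young controls the change was 0.57 ± 0.27 (adjusted p = 0.276), and old against young controls gave -0.56 ± 0.27 (adjusted p = 0.310), or -0.29 without old control 2. The order of means was old control, young control, calorie-restricted, and neither neighbouring pair differed past the threshold. Within numbers 1 to 3 the change with the diet was 1.31 (adjusted p = 0.0535) and within numbers 4 and 5 it was 0.86 (adjusted p = 0.115); with the set as a term the adjusted p was 0.0074. Without calorie-restricted animals 4 and 5 it was 0.99 (adjusted p = 0.165). The call was also lost without old control 3 (adjusted p = 0.0747) or calorie-restricted animal 1 (0.0816), 2 (0.0769), 4 (0.0790) or 5 (0.0829).

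**Figure D2:**
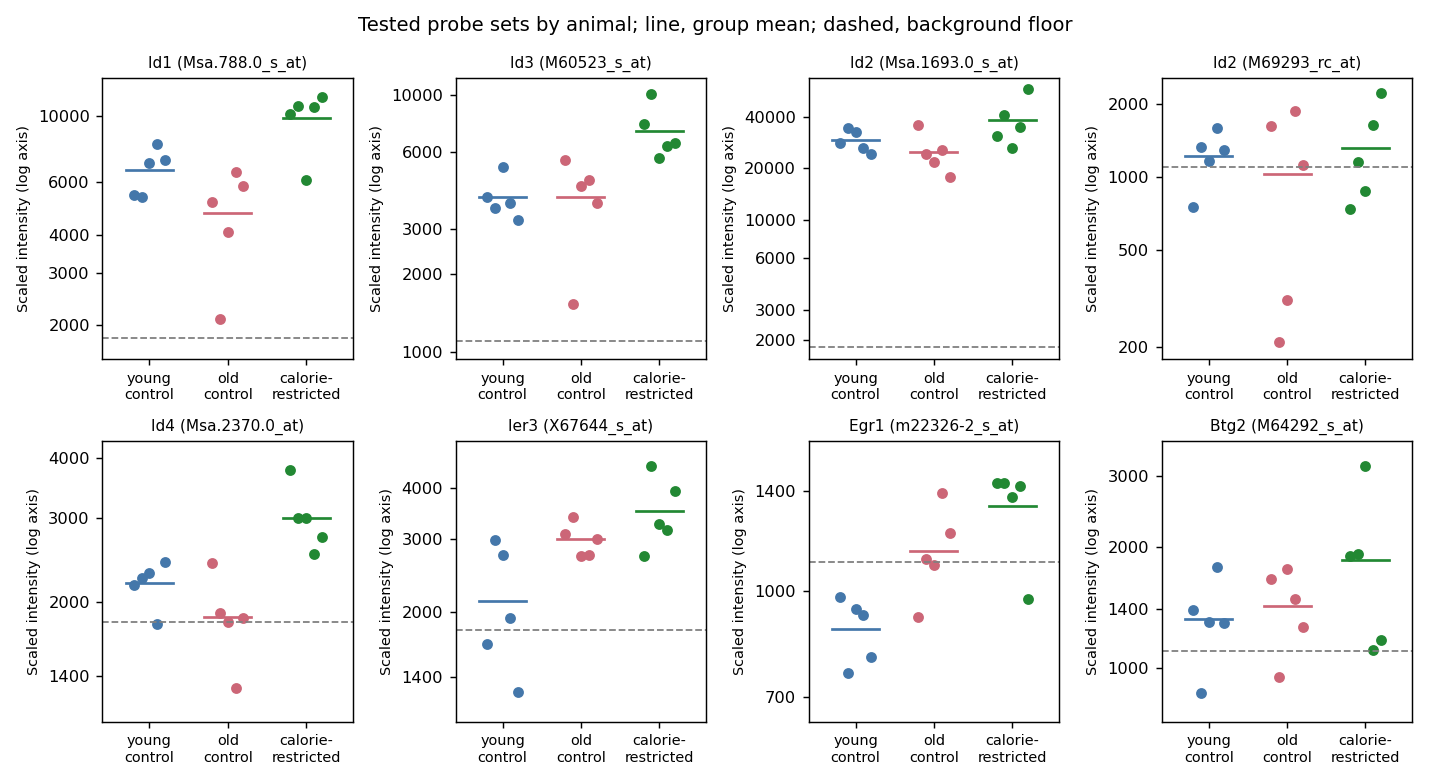
Scaled intensity (log axis) of the 7 tested member probe sets and of Id4, by group, with 1 point per animal in the order of its number, a line at the arithmetic group mean and a dashed line at the floor. In the Id1 panel 4 of 5 calorie-restricted animals lie at 10142 or higher and animal 3 at 6102; in the Id3 and Id4 panels all 5 lie above every control.

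Id3 had the only member probe set whose calorie-restricted values did not overlap either control group, but its changes did not pass the threshold. Young controls read 4014, 3628, 5251, 3811 and 3271, and old controls 5603, 1532, 4432, 4648 and 3782. Calorie-restricted animals read 7689, 10078, 5702, 6341 and 6505, so the lowest of them, at 5702, stood just above the highest control, at 5603. Over all tested probe sets, all 5 calorie-restricted animals stood above every old control in 1.79%, above every young control in 3.72%, and above both in 0.775%.

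Group means of Id3 were 3995 ± 753 (SD, n = 5) in young controls, 3999 ± 1526 in old controls and 7263 ± 1730 in calorie-restricted animals. The change was 0.95 ± 0.28 (95% interval 0.36 to 1.55; 1.94-fold) against old controls, with an adjusted p = 0.0948. Against young controls it was 0.85 ± 0.28 (0.26 to 1.45; 1.80-fold), with an adjusted p = 0.0963. Old against young controls gave -0.10 ± 0.28 (adjusted p = 0.900). Without old control 2, whose value was the lowest, the change with the diet was 0.64 and that with age 0.21. The changes within numbers 1 to 3 were 1.18 against old and 0.84 against young controls, and within numbers 4 and 5 they were 0.62 and 0.86. Without calorie-restricted animals 4 and 5 they were 1.05 (adjusted p = 0.165) and 0.95 (adjusted p = 0.147).

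Id2 had 2 measured probe sets that gave different pictures, and no change of either passed. That of the second array type read 28126, 34578, 32533, 26279 and 24226 in young controls. It read 35935, 24329, 21894, 25600 and 17858 in old controls, and 31043, 40887, 26224, 34788 and 58350 in calorie-restricted animals. The groups overlapped, with calorie-restricted animal 5 the highest of all 15 and old control 5 the lowest. Its change with the diet was 0.59 ± 0.21 (95% interval 0.14 to 1.04; adjusted p = 0.200), against young controls 0.35 ± 0.21 (adjusted p = 0.428), and with age -0.24 ± 0.21 (adjusted p = 0.652). Within numbers 1 to 3 the change with the diet was 0.27 and within numbers 4 and 5 it was 1.08. Without calorie-restricted animals 4 and 5, which include the highest value, it was 0.40. Against young controls the change was 0.02 within numbers 1 to 3, 0.84 within numbers 4 and 5, 0.15 without calorie-restricted animals 4 and 5, and 0.18 without animal 5 alone. With age it was -0.13 without old control 5 and -0.38 without old control 1.

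The other Id2 probe set, M69293_rc_at, lay near the floor. It read 753, 1328, 1158, 1587 and 1290 in young controls, 1625, 211, 313, 1863 and 1120 in old controls, and 738, 1155, 877, 1629 and 2205 in calorie-restricted animals. Its changes were 0.05 with age, 0.06 with the diet and 0.11 against young controls, each ± 0.21 (adjusted p = 0.941, 0.937 and 0.844). Under the floor for this probe set were young control 1, old controls 2 and 3, and calorie-restricted animals 1 and 3. Within numbers 1 to 3 and 4 to 5 its changes were -0.16 and 0.39 with the diet, and -0.09 and 0.41 against young controls. Without calorie-restricted animals 4 and 5 they were -0.25 and -0.20, so the sign turned with these animals.

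Id4, the remaining member of the Id family and a gene of the list of bone morphogenetic protein, Smad and helix-loop-helix genes, rose with the diet 1.53-fold. Its probe set of the second array type read 2170, 2247, 2294, 1795 and 2423 in young controls. It read 2406, 1893, 1810, 1318 and 1851 in old controls, and 3778, 2990, 2994, 2516 and 2735 in calorie-restricted animals. All 5 calorie-restricted values stood above all 10 control values, of which 3 were under the floor. The lowest of the 5, at 2516, was close to the highest control, at 2423. Over all tested probe sets 0.775% showed such a separation from both control groups. The group means were 2186 ± 237 (SD, n = 5), 1856 ± 386 and 3003 ± 477.

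The change of Id4 with the diet was 0.61 ± 0.14 (95% interval 0.32 to 0.90; adjusted p = 0.0226). Against young controls it was 0.45 ± 0.14 (adjusted p = 0.0672), which passed with the number set as a term (adjusted p = 0.0293). Old against young controls gave -0.16 ± 0.14 (adjusted p = 0.620). In numbers 1 to 3 the change with the diet was 0.68 (adjusted p = 0.0436) and in numbers 4 and 5 it was 0.52 (adjusted p = 0.309). It was 0.73 without calorie-restricted animals 4 and 5 (adjusted p = 0.0252). The call was lost without old control 3 (limma adjusted p = 0.0588) or calorie-restricted animal 1 (adjusted p = 0.0656). It was also lost with an asinh transform in place of log2 (adjusted p = 0.0672) and in a separate fit of the 2 groups (0.0625). With the diet 0.907% of all tested probe sets passed in the higher direction.

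Ier3, an early response gene that affects survival of stressed cells, was higher in calorie-restricted than in young kidneys, 1.57-fold, with old controls between them. Young controls read 1680, 2994, 2748, 1933 and 1281, of which numbers 1 and 5 were under the floor. Old controls read 3098, 3402, 2732, 2756 and 3013, and calorie-restricted animals 2729, 4505, 3273, 3161 and 3935. Young animals 2 and 3 stood within the range of the calorie-restricted group, so these groups overlapped. The means were 2127 ± 723 (SD, n = 5), 3000 ± 275 and 3521 ± 700.

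The change of Ier3 against young controls was 0.65 ± 0.17 (95% interval 0.28 to 1.02; adjusted p = 0.0359). In this comparison 2.94% of the tested probe sets passed in the higher direction, and 1 of 7 member probe sets did. The change with age was 0.44 ± 0.17 (adjusted p = 0.200) and with the diet 0.21 ± 0.17 (adjusted p = 0.607), so neither neighbour in the order of means differed past the threshold. Within numbers 1 to 3 the change against young controls was 0.48 (adjusted p = 0.276) and within numbers 4 and 5 it was 0.91 (adjusted p = 0.0644). Without calorie-restricted animals 4 and 5 it was 0.63 (adjusted p = 0.115). The call was also lost without young control 1 (adjusted p = 0.0888), 4 (0.0758) or 5 (0.0892), or without calorie-restricted animal 2 (0.0949), 3 (0.0560), 4 (0.0503) or 5 (0.0829). Young control 5, the lowest of its group, also had the highest actin 3′ to 5′ ratio on this array type (1.88). The part of RNA quality in the Ier3 result was not tested.

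Egr1 was close to the floor and was above it on more arrays of old animals, 0 of 5 in young controls, 3 of 5 in old controls and 4 of 5 in calorie-restricted animals. Young controls read 980, 757, 939, 920 and 800, old controls 916, 1111, 1091, 1388 and 1213, and calorie-restricted animals 1438, 1436, 1369, 1424 and 973. Calorie-restricted animal 5 stood apart at 973, under the floor like all young controls, while the other 4 lay between 1369 and 1438. The young group was not above the floor on any array. The mean log2 of the 5 calorie-restricted values, with 973 of animal 5 taken as read, lay 1.19-fold above the floor. That is an estimate without an error and not a lower bound. With values under the floor set to it, the log2 change against young controls was 0.29 ± 0.11 (limma adjusted p = 0.185), which did not pass. The changes were 0.19 ± 0.11 with the diet (adjusted p = 0.467) and 0.10 ± 0.11 with age (adjusted p = 0.753). Egr1 depended on the floor: with the floor halved the change against young controls was 0.59 (adjusted p = 0.0450) and with age 0.37 (adjusted p = 0.275). Within numbers 1 to 3 the change with the diet was 0.36, and within numbers 4 and 5 it was -0.05; against young controls these were 0.36 and 0.18.

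Btg2, an antiproliferative gene that p53 induces, showed no change past the threshold. It read 1395, 864, 1299, 1781 and 1295 in young controls, 1666, 951, 1761, 1485 and 1262 in old controls, and 1901, 1922, 3192, 1110 and 1174 in calorie-restricted animals. The groups overlapped, and calorie-restricted animal 3 alone reached 3192. The changes were 0.08 ± 0.25 with age, 0.26 ± 0.25 with the diet and 0.34 ± 0.25 against young controls (adjusted p = 0.915, 0.668 and 0.507). The number sets went opposite ways: within numbers 1 to 3 the changes were 0.62 with the diet and 0.85 against young controls, and within numbers 4 and 5 they were -0.26 and -0.41. Without calorie-restricted animals 4 and 5 they were 0.66 (adjusted p = 0.174) and 0.74 (adjusted p = 0.0800), and without animal 3 they were 0.04 and 0.12.

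**Figure D3:**
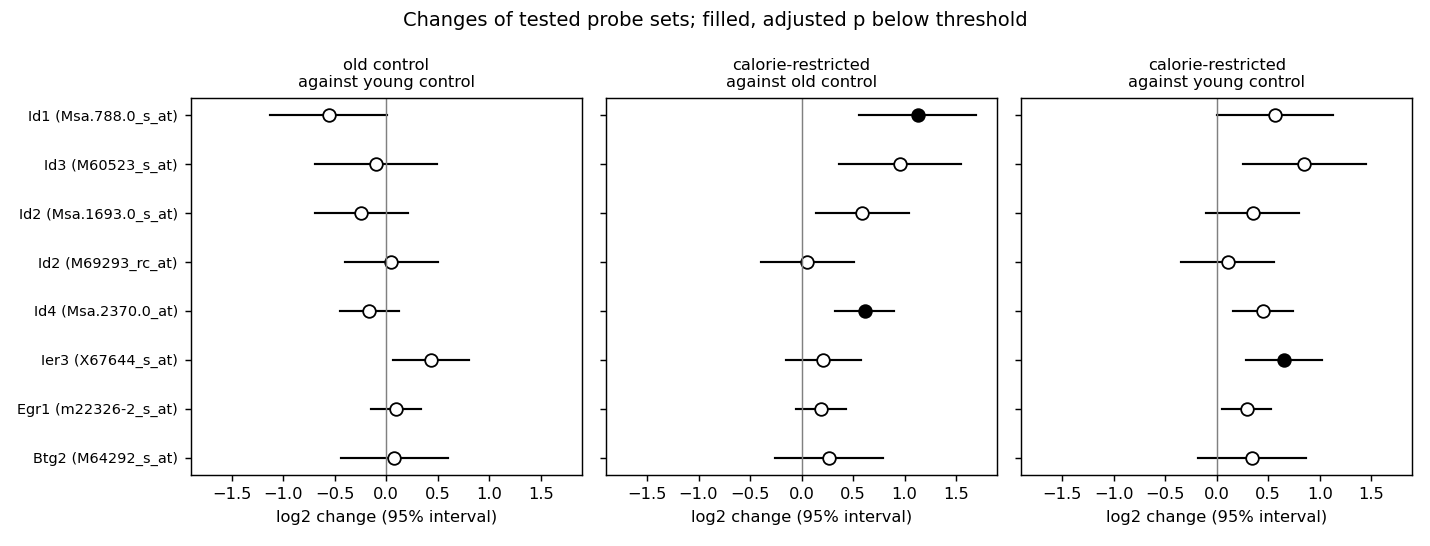
The log2 change of the 7 tested member probe sets and of Id4 in each of the 3 comparisons, with bars for the 95% interval and filled points where the limma adjusted p passed the threshold. Filled points are Id1 at 1.13 and Id4 at 0.61 against old controls, and Ier3 at 0.65 against young controls; none is filled for age.

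With age none of the 7 tested member probe sets passed, against 5.16% of all tested probe sets in either direction and 2.99% in the higher direction. Among them 4 changes were positive, 1 (Ier3) had an unadjusted p under 0.05 in limma, and the median was 0.05. Over all tested probe sets 44.9% were positive, 16.4% had such a p, and the median was -0.04. With the diet 7 of 7 changes were positive, 3 (Id1, Id3 and Id2 on the second array type) had an unadjusted p under 0.05, and the median was 0.26. Over all these were 54.7%, 14.6% and 0.03. Against young controls 7 of 7 were positive, 4 (Id1, Id3, Ier3 and Egr1) had an unadjusted p under 0.05, and the median was 0.35. Over all these were 48.5%, 18.1% and -0.01. Egr1 was under the floor in all young controls and was tested only through old control and calorie-restricted arrays. With values under the floor set to it, its changes with age and against young controls could not be negative. Its place in the counts of those 2 comparisons is therefore not read as a result. The comparisons share their groups, and probe sets on arrays of 1 animal share their source, so these counts are not independent of each other. The 7 probe sets stand for 6 genes, since Id2 is counted by 2. With the diet Id2 M69293_rc_at was negative within numbers 1 to 3 (-0.16), and Egr1 and Btg2 within numbers 4 and 5 (-0.05 and -0.26). Against young controls Id2 M69293_rc_at (-0.09) and Btg2 (-0.41) were negative within the same sets. Within numbers 1 to 3 and within numbers 4 and 5 the age changes were -0.34 and 0.25 for Id3, 0.23 and -0.15 for Btg2, 0.00361 and 0.24 for Egr1, -0.73 and -0.30 for Id1, and 0.32 and 0.62 for Ier3.

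Other genes of the same kinds were taken as lists. Of 52 other immediate early and early response genes, 40 were named on the arrays and 16 were tested, and 0 passed in any comparison. Their medians were 0.20 with age, 0.12 with the diet and 0.26 against young controls. Over all 4518 tested probe sets the medians were -0.04, 0.03 and -0.01. In either direction 233 of these passed with age, 118 with the diet and 258 against young controls. At such shares lists this short can hold 0, so the counts of this list and of those below are not read as a result. Klf2, a transcription factor of endothelium and lymphocytes, gave 0.71 ± 0.22 against young controls (adjusted p = 0.0725). Mcl1, which blocks apoptosis, gave 0.49 ± 0.17 with age (adjusted p = 0.129). Jund, an AP-1 subunit that was measured here, gave 0.32 ± 0.15 with the diet (adjusted p = 0.341), and Dusp1, a phosphatase that ends MAP kinase signalling, 0.35 ± 0.29 (adjusted p = 0.616).

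Of 31 genes of serum response and MAP kinase signalling, 19 were named and 7 tested, and 0 passed; their medians were -0.04, -0.05 and -0.05. Of 38 genes of bone morphogenetic protein and Smad signalling and helix-loop-helix partners, 30 were named and 7 tested, and 1, Id4, rose with the diet. The medians of that list were 0.06 with age, 0.23 with the diet and 0.26 against young controls. Among its ligands, Bmp4 gave 0.23 ± 0.18 with the diet (limma adjusted p = 0.585), Bmp6 0.44 ± 0.26 (adjusted p = 0.464) and Bmp7 -0.04 ± 0.12 (adjusted p = 0.909). The remaining tested genes of the list gave -0.42 ± 0.25 (Acvrl1, adjusted p = 0.472), -0.27 ± 0.19 (Eng, 0.535) and 0.26 ± 0.13 (Max, 0.401) with the diet. Of 18 cell cycle genes, 15 were named and 7 tested, and 0 passed, with medians of 0.15, -0.11 and -0.08.

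Markers of cell types were set beside these results, since in a whole kidney fewer cells of a type and less RNA per cell cannot be told apart. Of 10 endothelial markers on the arrays 3 were tested (Kdr, Tie1 and Icam2) and 0 passed in any comparison, while Pecam1, Cdh5, Flt1, Tek, Emcn, Nos3 and Cd34 lay above the floor on too few arrays. The summed endothelial level was 6695 to 8579 in young controls, 6887 to 10076 in old controls and 5935 to 9626 in calorie-restricted animals, so the groups overlapped. The summed level of 6 loop, distal tubule and collecting duct markers was 130673 to 146871 in young controls, 109794 to 118196 in old controls and 134050 to 166210 in calorie-restricted animals, the group in which Id1 and Id4 were higher as well. The young and calorie-restricted ranges overlapped. One of these 6, Egf, rose with the diet (0.45, limma adjusted p = 0.0331) and gave 0.05 against young controls (adjusted p = 0.841). With age 3 of the 6 fell, Calb1 (-0.67, adjusted p = 0.0265), S100g (-0.66, adjusted p = 0.0496) and Egf (-0.39, adjusted p = 0.0395). The part of these cell types in the Id results was not tested.

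Beside the change of Ier3 against young controls stood the summed level of 3 smooth muscle markers. It was 6678 to 9356 in young controls, 10867 to 16462 in old controls and 10110 to 17745 in calorie-restricted animals. Of these markers Acta2 rose against young controls (0.92, limma adjusted p = 0.0417) and Tagln rose with age (0.74, adjusted p = 0.0117). The summed level of 7 leukocyte markers was 23701 to 26003 in young controls, 47671 to 54583 in old controls and 28096 to 38943 in calorie-restricted animals. Of the leukocyte markers 1 rose against young controls (Cd74), 3 rose with age (Cd74, Lyz2 and Laptm5) and 2 fell with the diet (Cd74 and Cd37). Their part in the Ier3 result was not tested.

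The named probe sets most like Id1 over the 15 animals, of 723 compared on the second array type, were Rpl27a (r = 0.882), which encodes a ribosomal protein, Fmo1 (0.829), a flavin-containing monooxygenase, and Hoxd12 (0.829), a homeobox factor. Spearman's rho was 0.882, 0.732 and 0.799. After each group was centred on its mean, r was 0.896, 0.726 and 0.675, and without the 2 animals farthest from the median of Id1 it was 0.724, 0.589 and 0.772. None of these 3 passed in any comparison, and with the diet they gave 0.38, 0.34 and 0.50 (adjusted p = 0.390, 0.274 and 0.161). For Ier3 they included Ckb (r = 0.776), a creatine kinase, and Cd24a (0.742), a surface glycoprotein, with rho of 0.706 and 0.744. After centring r was 0.581 and 0.315, and without the 2 animals farthest from the median of Ier3 it was 0.765 and 0.647. Ckb and Cd24a were higher against young controls by 0.78 (adjusted p = 0.0308) and 0.78 (adjusted p = 0.00489), while the remaining one of the 3, Hspg2, is among the exchanged rows, where young values cannot be read, and its correlation is not given. These correlations were picked as the highest and are descriptions without a test; their points share arrays and groups.

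**Figure D4:**
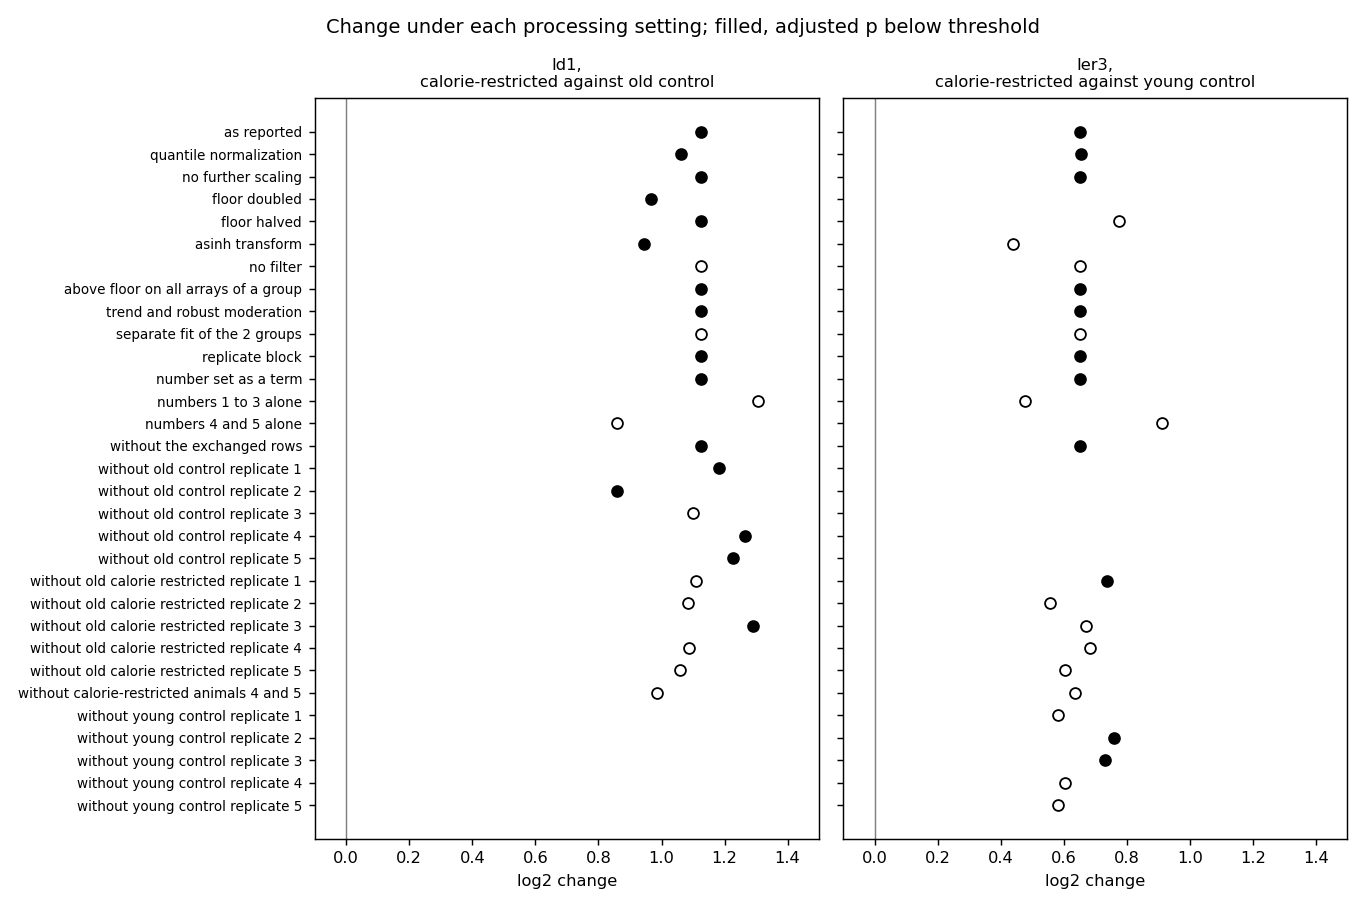
The log2 change of Id1 against old controls and of Ier3 against young controls under each processing setting (rows), filled where the adjusted p passed the threshold and left blank where a setting leaves out an animal of neither group. All points lie above 0, from 0.86 to 1.31 for Id1 and from 0.44 to 0.91 for Ier3, and both columns hold open points.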

How the data were processed

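Deposited intensity values, whole numbers per probe set with negative values, were used for 15 animals on 2 array types; the sources used here do not give the scanner software or the background step. Arrays of a table were brought to 1 common mean, leaving out the highest and lowest 2% of values. Values under the floor (1103 and 1815) were set to it and log2 was taken, which understates changes near the floor. Rows blank on some arrays (77 on the first table, 16 of them not controls) and control probe sets (61 per table) were left out, which left 6507 and 6534.

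Scaling was done within each table, and rows of both tables then entered 1 fit of the 3 groups in limma 3.58.1 (R 4.3.3), using lmFit and eBayes. P-values were adjusted by Benjamini-Hochberg over 4518 tested probe sets, at a threshold of 0.05. Symbols came from the array annotation, updated with RefSeq: 1 for 5529 and 2001 probe sets, several for 197 and 27, none for 781 and 4506. Every member probe set is named, and list genes past the threshold, up to 4 per list and comparison, and the 3 probe sets most like a member that passed. Klf2, Mcl1, Jund, Dusp1, Bmp4, Bmp6, Bmp7, Acvrl1, Eng and Max were named after their values were seen. Members and lists were chosen with earlier results of these data known. The fit was tested on simulated data. Alternatives covered scaling, floor, transform, filter, moderation, separate fits, number sets, a replicate block, exchanged rows and leaving out each animal. Figures were drawn with matplotlib 3.10.9.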

Additional observations from a re-analysis of the deposited data

Results flagged for a closer look

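In calorie-restricted kidneys the Id1 probe set of the second array type read 6102 in animal 3, far below the other 4 animals, which read 10142 to 11590. Without that animal the change of Id1 with the diet was 1.29 (limma adjusted p = 0.0188). The Egr1 probe set m22326-2_s_at read 973 in calorie-restricted animal 5, under the floor and far below the other 4 animals at 1369 to 1438. A gap of this size relative to the range of a group was looked for in 24 groups of 5 and found in 2, and chance gives it in about 1 of 20 groups. The cause was not tested in either case.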

How the results depend on the processing

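The call of Id1 with the diet held in 15 of 25 alternatives, with changes of 0.86 to 1.31 and adjusted p from 0.0074 to 0.165. That of Ier3 against young controls held in 10 of 24, with 0.44 to 0.91 and adjusted p from 0.0154 to 0.276, and that of Id4 with the diet in 19 of 24, with 0.38 to 0.73 and adjusted p from 0.00858 to 0.309. No result past the threshold changed direction. The number of member probe sets past the threshold with the diet was 1. It was 2 with the floor doubled, where Id3 also passed (adjusted p = 0.0486). It was 0 with no filter, in the separate fit of the 2 groups, in numbers 1 to 3 alone, in numbers 4 and 5 alone, and without calorie-restricted animals 4 and 5, an alternative chosen after seeing the data. Against young controls it was 1, and 0 with the asinh transform, with no filter, in either number set alone, and without calorie-restricted animals 4 and 5. Another member took its place with the floor halved (Egr1, adjusted p = 0.0450), with the floor doubled, where Ier3 was not tested (Id3, adjusted p = 0.0261), and in the separate fit (Id3, adjusted p = 0.0153). Leaving out 1 animal at a time gave 0 to 1 in both comparisons. With age it was 0 throughout. Of the 13 probe sets, 7 were tested, 3 with the floor doubled and 8 with it halved, when that of Ier2 was added.

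The replicate block, the title number as a term, left these counts at 0, 1 and 1, with adjusted p = 0.0172 for Id1 and 0.0154 for Ier3. Id4 against young controls also passed with the block (adjusted p = 0.0400). Same-numbered animals of 2 groups correlated in their deviations with -0.0149 to 0.489 over 15 pairs, 13 of them over 0.1, among them all 5 pairs of young and old controls. In 1 of 15 the same number was the best match, and no label says that numbers pair animals, so the block is given here only.

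Over all probe sets 118 passed with the diet, against 68 with no filter, 72 in the separate fit, 224 with the number set as a term, 253 in numbers 1 to 3 alone, 9 in numbers 4 and 5 alone, 69 without calorie-restricted animals 4 and 5, and 73 to 133 without 1 animal at a time. With age 233 passed, against 150 without the exchanged rows and 146 in numbers 4 and 5 alone. Against young controls 258 passed, against 169 without the exchanged rows, 439 with the number set as a term and 104 in numbers 4 and 5 alone. Signal near the floor limits Ier3, Egr1, Btg2, Id4 and the second probe set of Id2.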
